A study of Mus musculus with 6 samples.

Results

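De novo lipogenesis is the building of fatty acids from acetyl-CoA, and 10 genes of this pathway were followed in the gastrocnemius of mice with C26 tumors. The genes are the citrate carrier Slc25a1, the enzymes Acly, Acaca, Fasn, Elovl6, Scd1, Scd2 and Me1, and the regulators Srebf1 and Thrsp. They were chosen by name, with earlier results of these data known. All 10 are among the 13363 genes listed with an FPKM, a read count scaled to transcript length and library size, in all muscles. RNA sequencing covered 3 C26 muscles and 3 control muscles of Balb/c mice. The mice were males bought at 6 weeks of age and kept for 1 week before the experiment. C26 is a murine colon adenocarcinoma line, and 500000 of its cells were injected under the skin of the right flank of each C26 mouse, whereas control mice bore no tumor. Body weight was followed for 15 days. The model is 1 cell line in 1 strain. The labels number 3 samples per group without naming the animals, so p-values here measure only the spread between these samples.

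In this pathway, the carrier Slc25a1 takes citrate out of the mitochondrion and ATP citrate lyase, the product of Acly, splits it into acetyl-CoA in the cytosol. Acetyl-CoA carboxylase 1 (Acaca) makes malonyl-CoA, fatty acid synthase (Fasn) assembles palmitate from it, and Elovl6 lengthens palmitate. The stearoyl-CoA desaturases Scd1 and Scd2 add a double bond, and malic enzyme (Me1) supplies NADPH. The transcription factor SREBP-1, encoded by Srebf1, switches these genes on when insulin is high, and Thrsp encodes Spot 14, a small protein of lipogenic tissues that responds to thyroid hormone. The pathway is most active in liver, fat and lactating mammary gland, and skeletal muscle is a minor site.

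The muscle label held in all libraries, since the fiber genes Acta1 and Ckm, like the genes named next chosen after their values were seen, had 10781 to 27269 and 14314 to 26160 FPKM over the 6 muscles. Single libraries stood apart in part of their genes. Control replicate 3 had 40.1 FPKM of the leukocyte gene Ptprc against 0.81 and 0.40 in the other controls, and 188 FPKM of the myeloid gene Lyz2 against 39.1 and 29.3. C26 replicate 2 had 247 FPKM of the macrophage gene Cd68 against 34.9 and 6.46 in the other C26 muscles, while each of the other 5 listed immune cell markers was lower in it than in C26 replicate 1. The summed FPKM of the 6 listed markers was 243 in control replicate 3, 284 in C26 replicate 2, most of it Cd68, and between 31.7 and 83.3 in the other 4 muscles. C26 replicate 3 had 2555 FPKM of the fast myosin gene Myh1 against 299 and 254 in the other C26 muscles, and 379 FPKM of Myh2 against 84.5 and 75.1. The part of these differences in the lipogenic values was not tested.

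Most of the lipogenic genes were lower in C26 muscles. Of the 10 genes, 8 had a Benjamini-Hochberg adjusted p under 0.05 in limma, all of them downregulated, where 14.5% of all genes were called lower. With the criterion of a fold change above 4 in addition, 6 of the 10 were downregulated, namely Scd1, Fasn, Slc25a1, Scd2, Thrsp and Elovl6, where 1.73% of all genes were. No gene of the 10 was called higher by limma, and 0 had an unadjusted p under 0.05 in that direction, where 19.4% of all genes were called higher. The median log2 fold change of the 10 genes was -2.37, beside -0.05 over all genes. Fold changes are on the log2(TPM + 1) scale, where TPM are the FPKM rescaled to the same sum in every muscle and divided by TMM factors, and this scale understates the change of genes with low values. The C26 and control values did not overlap for the same 8 genes, where 26.5% of all genes were without overlap and lower and 27.0% without overlap and higher. Over all genes, limma called 1931 lower and 2590 higher. This split turned to 2504 and 1678 with the deposited FPKM in place of scaled TPM, and to 3356 and 1520 with TPM summed without the 20 most abundant genes, an alternative added after the data were seen. The 10 lipogenic genes kept their negative sign under every scaling.

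**Figure D1:**
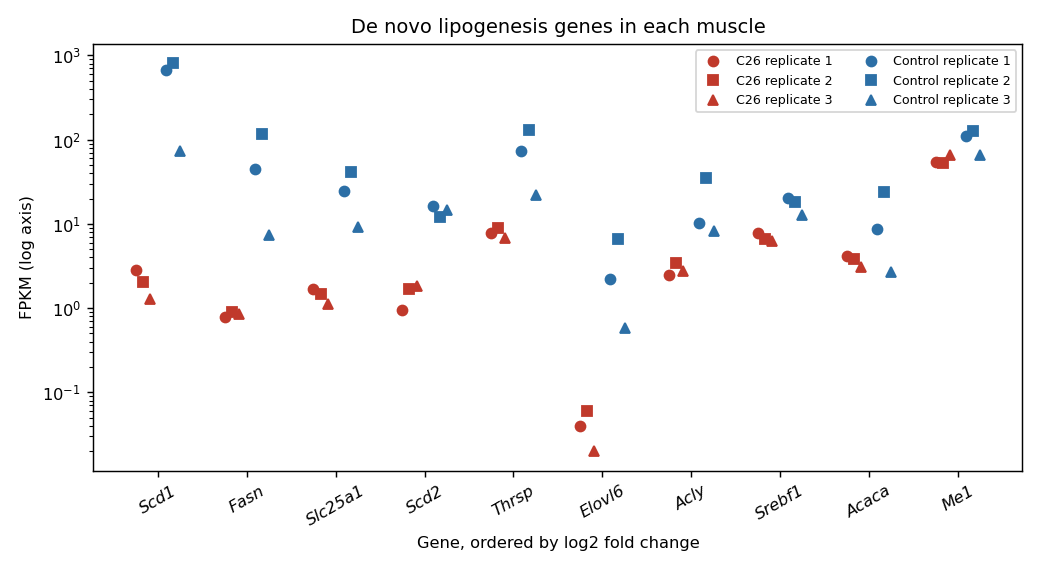
FPKM on a log axis of the 10 lipogenic genes in each of the 3 C26 muscles (red) and 3 control muscles (blue), with 1 symbol per replicate and genes ordered by log2 fold change. The groups part for all but Acaca and Me1, and control replicate 3 is the lowest control for all but Scd2.

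How many genes were called depended on single muscles. With C26 replicate 1, C26 replicate 2 or control replicate 1 left out, 3 of the 10 genes were called, namely Scd1, Scd2 and Slc25a1. These 3 were called in every fit that left out a muscle. With C26 replicate 3 left out 6 genes were called, and with control replicate 2 left out 7. With control replicate 3 left out all 10 were called, Acaca and Me1 included.

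Both genes of the citrate supply fell. Slc25a1, the mitochondrial citrate carrier (Entrez gene ID 13358, chromosome 16 of GRCm38, 17925223 to 17928219, minus strand), had 1.70, 1.49 and 1.11 FPKM in C26 muscles and 24.4, 41.2 and 9.25 FPKM in control muscles. The lowest control lay 5.44-fold above the highest C26 muscle. Its log2 fold change was -3.25 (95% interval -4.55 to -1.95, limma with BH-adjusted p = 0.00832), and it stayed between -3.86 and -2.72 with each muscle left out. Acly, which makes cytosolic acetyl-CoA from citrate (104112, chromosome 11, 100476353 to 100528000, minus strand), had 2.49, 3.48 and 2.76 FPKM in C26 muscles and 10.1, 35.3 and 8.30 FPKM in control muscles. Control replicate 2 was far above the other controls for this gene, and the groups still did not overlap. The log2 fold change of Acly was -1.92 (95% interval -3.27 to -0.57, limma with BH-adjusted p = 0.0405). This call was lost with control replicate 1 or any of the 3 C26 muscles left out, where the BH-adjusted p of limma reached 0.124. Without control replicate 2 the log2 fold change was -1.24.

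Acaca, the carboxylase that makes malonyl-CoA for fatty acid synthesis (107476, chromosome 11, 84129672 to 84401651, plus strand), had 4.18, 3.82 and 3.12 FPKM in C26 muscles. In the controls it had 8.71, 24.2 and 2.69 FPKM. Control replicate 3 lay below all C26 muscles, so that the groups overlapped. Its log2 fold change was -0.91 (95% interval -2.62 to 0.81, limma with BH-adjusted p = 0.351). With control replicate 3 left out the log2 fold change was -1.68 and the BH-adjusted p of limma 0.0412, and with control replicate 2 left out it was -0.13. Of the distinct 50-base stretches of its GENCODE transcripts, the length of the reads, 30.4% also occur in transcripts of other genes, mostly of Gm5182, so RSEM could have split reads between them. The paralog Acacb shares 0 of these stretches with Acaca.

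Fasn, the enzyme that assembles palmitate (14104, chromosome 11, 120805846 to 120824547, minus strand), was nearly level in the C26 muscles, with 0.78, 0.90 and 0.86 FPKM. The controls had 44.5, 118 and 7.47 FPKM, a 15.8-fold range, and the lowest of them was 8.30-fold above the highest C26 muscle. The log2 fold change was -4.43 (95% interval -6.69 to -2.17, limma with BH-adjusted p = 0.0156). On the log2(TPM + 1) scale this ranks Fasn at 8 from the most lowered among the 13363 listed genes. The call was lost with C26 replicate 1, C26 replicate 2 or control replicate 1 left out, with BH-adjusted p of limma of 0.0597, 0.0515 and 0.0610. The log2 fold change was -3.50 without control replicate 2 and -5.54 without control replicate 3. Elovl6, which lengthens palmitate to stearate (170439, chromosome 3, 129532355 to 129638495, plus strand), was the least abundant gene of the group. It had 0.04, 0.06 and 0.02 FPKM in C26 muscles, near the 0.01 to which values are rounded, and 2.22, 6.56 and 0.58 FPKM in control muscles. The groups did not overlap, and the log2 fold change was -2.10 (95% interval -3.60 to -0.59, limma with BH-adjusted p = 0.0432). With a pseudocount of 0.1 in place of 1 it was -4.29. Its call was lost with control replicate 1 or any of the 3 C26 muscles left out, where the BH-adjusted p of limma reached 0.119. Without control replicate 2 the log2 fold change was -1.41, under 4-fold, and without control replicate 3 it was -2.76.

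Both desaturases fell, and their controls behaved differently. Scd1 (20249, chromosome 19, 44394455 to 44407879, minus strand) had 2.84, 2.05 and 1.29 FPKM in C26 muscles and 670, 805 and 72.9 FPKM in control muscles. Control replicate 3 held 9.88% of the mean of the other controls and was still 25.7-fold above the highest C26 muscle. Scd1 had a log2 fold change of -6.86 (95% interval -9.10 to -4.61, limma with BH-adjusted p = 0.00522). On the log2(TPM + 1) scale this was the largest fall among the 13363 listed genes. Genes at 0 FPKM in any muscle are not listed and have no rank. The log2 fold change of Scd1 stayed between -8.01 and -6.17 with each muscle left out. Scd2 (20250, chromosome 19, 44293674 to 44306864, plus strand), the paralog that is abundant in brain, had 0.95, 1.71 and 1.82 FPKM in C26 muscles and 16.3, 11.9 and 14.7 FPKM in control muscles. Here control replicate 3 was at 104% of the mean of the other controls. Scd2 had the narrowest interval of the 10 genes, with a log2 fold change of -2.67 (95% interval -3.19 to -2.15, limma with BH-adjusted p = 0.00171). Of the 50-base stretches of the transcripts, 4.56% of those of Scd1 and 3.75% of those of Scd2 occur in another Scd gene.

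Me1, the cytosolic malic enzyme (17436, chromosome 9, 86581371 to 86695953, minus strand), had 54.7, 53.4 and 66.6 FPKM in C26 muscles and 111, 128 and 65.3 FPKM in control muscles. Control replicate 3 lay just below C26 replicate 3, and the groups overlapped. The log2 fold change was -0.53 (95% interval -1.30 to 0.23, limma with BH-adjusted p = 0.231). With control replicate 3 left out it was -0.86 with a BH-adjusted p of limma of 0.0313. With control replicate 2 left out it was -0.27 (limma with BH-adjusted p = 0.519). Of its 50-base stretches 28.3% occur in transcripts of other genes, mostly of Gm7049.

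Of the regulators, Srebf1 (20787, chromosome 11, 60199089 to 60222581, minus strand) fell by less than most of the enzymes. It had 7.75, 6.70 and 6.30 FPKM in C26 muscles and 20.6, 18.3 and 12.8 FPKM in control muscles, without overlap. The log2 fold change was -1.02 (95% interval -1.56 to -0.48, limma with BH-adjusted p = 0.0174), and the call was lost with C26 replicate 1, C26 replicate 2, control replicate 1 or control replicate 2 left out, where the BH-adjusted p of limma reached 0.0674. The proteins SREBP-1a and SREBP-1c cannot be told apart in a value per gene, and 109 bases of its exons lie opposite an exon of Rai1 on the other strand. Thrsp (21835, chromosome 7, 97412938 to 97417730, minus strand) had 7.72, 8.92 and 6.85 FPKM in C26 muscles and 73.2, 129 and 22.2 FPKM in control muscles. Its C26 values lay close together, while the controls spread over a 5.83-fold range. The log2 fold change of Thrsp was -2.64 (95% interval -4.17 to -1.10, limma with BH-adjusted p = 0.0230), and the call was lost with C26 replicate 1, C26 replicate 2 or control replicate 1 left out, where the BH-adjusted p of limma reached 0.0808. It was -2.02 without control replicate 2 and -3.38 without control replicate 3.

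**Figure D2:**
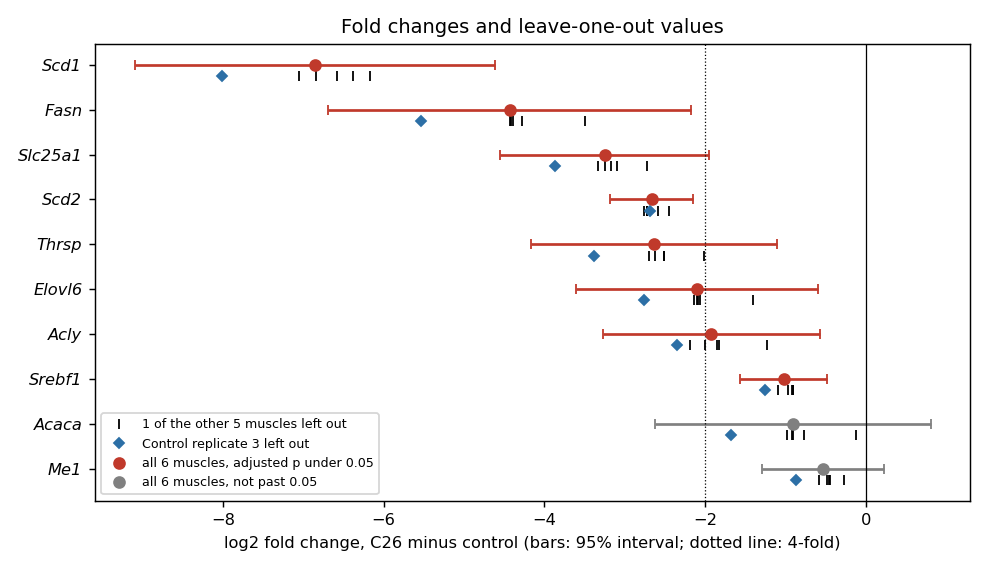
Log2 fold change (C26 minus control) of each gene with its 95% interval, in red where the adjusted p of limma was under 0.05 and in grey otherwise, and below it the values with a muscle left out. The blue diamonds, without control replicate 3, lie at the lower end for all genes but Scd2, where the leave-one-out values run from -2.76 to -2.45.

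Promoter sequences of RefSeq on GRCm38.p6 were matched for 8 of the 10 genes, with 11 start sites in all. No sequence was matched for Scd1 and Scd2, so their promoters were not searched. Of the searched genes lowered by over 4-fold, Fasn, Slc25a1 and Thrsp held a CCAAT box or E-box. Shown are the 250 bases before their RefSeq starts, 5′ to 3′ on the strand of the gene. Capitals mark CCAAT on either strand (read as ATTGG on the other) and the E-box CACGTG.
Fasn, chr11:120824548-120824797, minus strand: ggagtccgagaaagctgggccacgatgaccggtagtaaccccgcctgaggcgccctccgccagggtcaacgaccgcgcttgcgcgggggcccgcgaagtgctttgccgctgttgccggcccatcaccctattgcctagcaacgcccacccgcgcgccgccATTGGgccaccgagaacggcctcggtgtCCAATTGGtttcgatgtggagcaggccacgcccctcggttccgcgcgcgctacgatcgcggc
Slc25a1, chr16:17928220-17928469, minus strand: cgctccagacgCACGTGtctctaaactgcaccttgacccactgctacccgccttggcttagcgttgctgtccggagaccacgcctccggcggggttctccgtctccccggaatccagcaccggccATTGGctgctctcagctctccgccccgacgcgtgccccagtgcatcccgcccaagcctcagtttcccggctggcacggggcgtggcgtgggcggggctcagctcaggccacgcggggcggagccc
Thrsp, chr7:97417551-97417800, minus strand: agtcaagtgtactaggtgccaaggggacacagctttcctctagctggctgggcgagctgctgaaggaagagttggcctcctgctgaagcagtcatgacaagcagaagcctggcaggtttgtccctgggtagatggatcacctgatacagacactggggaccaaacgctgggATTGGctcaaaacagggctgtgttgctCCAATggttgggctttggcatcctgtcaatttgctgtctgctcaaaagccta

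The Fasn window holds CCAAT 3 times, of which the copies starting 62 and 59 bases before the start overlap. Thrsp holds 2 copies, and Slc25a1 holds 1 beside the E-box. The RefSeq start of Thrsp lies inside the GENCODE span given above. Its window therefore partly overlaps that span, and both CCAAT copies of Thrsp lie in the overlap. Over all 11 windows, 6 held CCAAT, where 33.8% of the 32851 windows of all genes did. The E-box CACGTG was in 1 of the 11, where 6.02% of all windows held it, and the GC box GGGCGG in 5, where 32.7% did. The sterol regulatory element was searched as TCACNCCAC and the LXR element as a direct repeat of AGGTCA with 4 bases between, each on both strands, and 0 of the 11 windows held either, where 1.05% and 0.0152% of all windows did. A match of letters is a description of the window and not a measured binding site.

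The order of the genes by FPKM, a level per length, differed between the groups. In the control muscles Scd1 was the most abundant, with 516 ± 390 FPKM (SD, n = 3), before Me1 with 101 ± 32.4, Thrsp with 74.9 ± 53.6 and Fasn with 56.8 ± 56.4. The ranges of all neighbours in the control order overlapped. In the C26 muscles Me1 led with 58.2 ± 7.26 FPKM, above the ranges of all others, followed by Thrsp with 7.83 ± 1.04 and Srebf1 with 6.92 ± 0.75, whose ranges overlapped. Scd1, at 2.06 ± 0.78 FPKM, lay between Acly and Scd2, and its range overlapped with both. Slc25a1, Fasn and Elovl6 came last, each with a range apart from the next.

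The summed FPKM of the 10 genes was 83.1, 82.6 and 90.7 in C26 muscles and 982, 1318 and 216 in control muscles. Scd1 made up 68.3%, 61.1% and 33.7% of this sum in the controls, and its share in C26 muscles was between 1.42% and 3.42%. Me1 made up 64.7% to 73.4% of it in C26 muscles and 11.3%, 9.70% and 30.2% in the controls. Control replicate 3 thus lay between the groups in both shares.

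**Figure D3:**
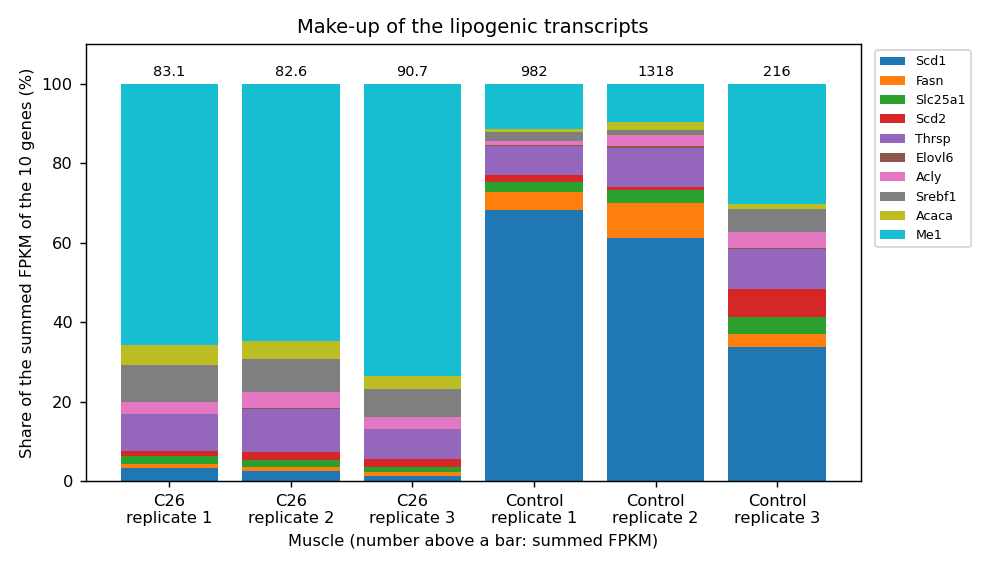
Share of each gene in the summed FPKM of the 10 lipogenic genes per muscle, with the sum above each bar. Scd1 (blue, bottom) takes 33.7% to 68.3% of the sum in control muscles and Me1 (cyan, top) 64.7% to 73.4% in C26 muscles.

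Ratios of FPKM between genes within a muscle do not depend on the scaling between muscles. Scd1 had 41.1, 67.5 and 4.95 times the FPKM of Scd2 in control muscles and between 0.709 and 2.99 times in C26 muscles. Fasn had 5.11, 4.88 and 2.78 times the FPKM of Acaca in the controls and 0.187, 0.236 and 0.276 times in C26 muscles. In both ratios the groups did not overlap. On the log2(TPM + 1) scale the mean difference between the groups was -4.19 for Scd1/Scd2, -3.53 for Fasn/Acaca and -1.33 for Slc25a1/Acly. A two-sided exact permutation test gave p = 0.1 for each (n = 3 per group), the smallest that 3 samples against 3 allow, and 0.117 after Benjamini-Hochberg adjustment over 7 ratios.

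Of the carboxylase genes, Acacb was called higher and Acaca was not called. The log2 fold change of Acaca was -0.91 with overlapping groups (limma with BH-adjusted p = 0.351). Acacb encodes the isoform at the mitochondrial surface, whose malonyl-CoA restrains the entry of fatty acids for oxidation. It rose from 29.9 ± 10.7 to 116 ± 26.1 FPKM (SD, n = 3), a log2 fold change of 2.18 (SE 0.33, limma with BH-adjusted p = 0.00673). The FPKM of Acaca was 0.0294, 0.0329 and 0.0347 times that of Acacb in C26 muscles and between 0.136 and 0.592 times in controls. The log2 ratio differed by -3.09 (exact permutation test, two-sided, p = 0.1, n = 3 per group).

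The controls varied more than the C26 muscles in 9 of the 10 genes. The exception was Scd2, with an SD of the log2 values of 0.136 in controls and 0.380 in C26 muscles. The SD of the log2 values over the 3 controls had a median of 1.28 over the 10 genes and 0.206 over all genes, and over the 3 C26 muscles 0.162 and 0.214. The log2(TPM + 1) scale narrows the spread of low values. In C26 muscles the SD of Elovl6 was 0.044, though its FPKM ran from 0.02 to 0.06. Control replicate 2 was the highest control for 8 of the 10 genes, where this held for 20.5% of all genes. Control replicate 3 was the lowest control for 9 of the 10, where this held for 34.0% of all genes. Scd2 was lowest in control replicate 2, and Scd2 and Srebf1 were highest in control replicate 1.

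Fat cells lie between muscle fibers and use the same pathway, so their markers are given beside these values. Of 13 listed fat cell markers, 8 were called lower and 1, Plin4, higher, where 14.5% and 19.4% of all genes were. Plin4, a lipid droplet gene that muscle fibers also express, lost its call in 2 of the 6 fits with a muscle left out. Adipoq, which encodes adiponectin, had 3.11, 2.06 and 0.18 FPKM in C26 muscles and 176, 79.3 and 11.5 FPKM in control muscles (log2 fold change -4.66, limma with BH-adjusted p = 0.0196). Plin1 and Cidec, lipid droplet genes of fat cells, had log2 fold changes of -4.34 and -3.69. Each of the 8 lost its call in 4 or 5 of the 6 fits with a muscle left out. The file lists only genes above 0 in every muscle, so no listed marker could be at 0, and the other marker of the list, Adrb3, was not analysed here. The lowest value was 0.02 FPKM, of Lep in C26 replicate 3. The summed FPKM of the 13 markers ran from 468 to 606 in C26 muscles and reached from 597 to 4397 in the controls, and of the 12 without Plin4, which was set aside after its value was seen, 266 to 403 and 556 to 4277. Control replicate 3 was the lowest control for all 13 markers, and for 9 of the 10 lipogenic genes. The highest control differed, since it was control replicate 1 for all 13 markers and control replicate 2 for 8 of the 10 lipogenic genes. In bulk RNA, fewer fat cells and less RNA per cell cannot be told apart, and the part of fat cells in the lipogenic values was not tested.

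Relative to the mean log2 level of the 13 fat cell markers in the same muscle, Scd1 stood at -0.71, -0.90 and -0.64 in C26 muscles and at 3.03, 4.22 and 2.96 in control muscles. The groups did not overlap, with a difference of -4.15 (exact permutation test, two-sided, p = 0.1, n = 3 per group). For Fasn the difference was -1.73, with p = 0.1 in this exact test, and for Slc25a1 -0.55 with p = 0.4 and overlapping groups. With Plin4 taken out of the markers, an alternative added after the data were seen, the difference was -3.78 for Scd1, still without overlap (exact p = 0.1). It was then -1.36 for Fasn and -0.17 for Slc25a1, with overlapping groups (exact p = 0.2 and 0.9). With all 13 markers and a pseudocount of 0.1, the exact p was 0.2 for Fasn, and the difference of Slc25a1 was -0.28 (exact p = 0.8). With control replicate 2 left out the difference was -1.06 for Fasn and -0.29 for Slc25a1, and for Slc25a1 it was -1.12 without control replicate 1 and -0.23 without control replicate 3. Ratios to single markers, chosen after their values were seen, are given beside these. Scd1 had 0.913, 0.995 and 7.17 times the FPKM of Adipoq in C26 muscles and 3.80, 10.2 and 6.31 times in controls. Fasn had 2.17, 4.50 and 10.8 times the FPKM of Plin1 in C26 muscles and 0.981, 3.52 and 2.55 times in controls. The groups overlapped in both ratios.

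Schwann cells also make fatty acids, for myelin. Of 12 listed myelin markers, 1 was called lower, Pmp22 (chosen after its value was seen, and lost in all 6 fits with a muscle left out), and 0 higher by limma, where 0 also had an unadjusted p under 0.05 in that direction. The 12 markers summed to between 25.1 and 52.3 FPKM in C26 muscles and between 50.9 and 139 FPKM in controls, with the lowest control in replicate 2, in which most lipogenic genes were highest. Mbp and Prx had log2 fold changes of -0.84 and -0.51, with BH-adjusted p of limma of 0.154 and 0.318. All 12 log2 fold changes were negative, with a median of -0.53 beside -0.05 over all genes. For 4 of the 12 the groups did not overlap, where 26.5% of all genes were without overlap and lower. Of the other cell types, 5 of 9 fibroblast markers and 2 of 7 endothelial markers were called lower and 0 higher, and 3 of 12 muscle fiber markers were called lower and 0 higher, where 0 of these 28 had an unadjusted p of limma under 0.05 in the upward direction and 14.5% of all genes were called lower. With a muscle left out, 3 of the fibroblast markers (Col1a1, Col1a2 and Col3a1, named after their values were seen) kept their call in all 6 fits, and each of the other 7 markers lost it in at least 2. The parts of these cells were not tested.

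**Figure D4:**
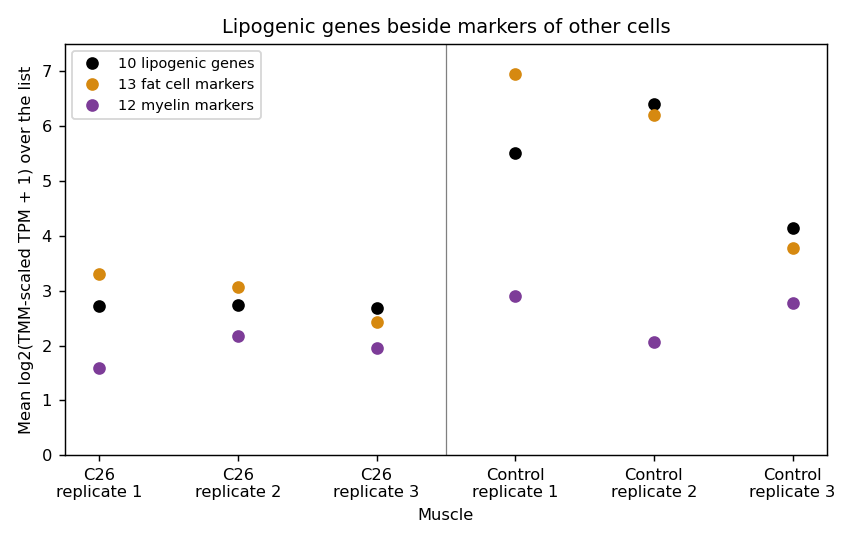
Mean log2(TMM-scaled TPM + 1) over the 10 lipogenic genes (black), 13 fat cell markers (orange) and 12 myelin markers (purple) in each muscle. The lipogenic mean lay between 2.69 and 2.74 in C26 muscles and at 5.51, 6.41 and 4.14 in the controls, and the fat cell markers were highest in control replicate 1.

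The other genes of lipid synthesis did not move as 1 block. Of 76 such genes chosen by role, 68 are listed, and of these 16 were called lower and 17 higher, where 14.5% and 19.4% of all genes were. With a fold change above 4 in addition, 5 were lower and 5 higher, where 1.73% and 1.77% of all genes were. The counts by role that follow are to be read against the same shares. Their median log2 fold change was -0.17.

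Among 8 genes of NADPH supply, 4 were lower and 2 higher. Tkt and G6pdx, of the pentose phosphate pathway, fell from 37.2 ± 26.7 to 4.14 ± 0.85 and from 6.88 ± 2.13 to 1.47 ± 0.20 FPKM (SD, n = 3), with log2 fold changes of -2.57 and -1.64 (limma with BH-adjusted p of 0.0147 and 0.00592). The call of Tkt was lost in 3 of the 6 fits with a muscle left out and that of G6pdx in 0. The mitochondrial genes Idh2 and Nnt rose, from 103 ± 55.0 to 491 ± 183 and from 20.1 ± 7.70 to 41.6 ± 2.88 FPKM (SD, n = 3). Idh2 lost its call in 0 of the 6 fits and Nnt in 3.

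Of 6 genes that make or use acetyl-CoA and malonyl-CoA outside the 10, 3 rose and 0 fell in limma, with 0 at an unadjusted p under 0.05 downward, and these 3 were Acacb, Acss1 and Mlycd. Acss1, the acetyl-CoA synthetase of mitochondria, had 241, 210 and 129 FPKM in C26 muscles and between 9.45 and 16.4 FPKM in controls (log2 fold change 4.15, limma with BH-adjusted p = 0.00153). Mlycd, which breaks down malonyl-CoA, rose by a log2 fold change of 2.30, and all 3 kept their call in each fit with a muscle left out.

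Of 13 other elongation and desaturation genes, 6 were lower and 2 higher. Hsd17b12, a reductase of the elongation cycle, fell from 11.2 ± 3.62 to 1.77 ± 0.46 FPKM (SD, n = 3), a log2 fold change of -2.09, and Elovl5, which lengthens polyunsaturated fatty acids, had a log2 fold change of -1.11. Both kept their call in all 6 fits with a muscle left out. Fads3 had a log2 fold change of -2.13 but lost its call in 5 of the 6 fits, and Fads2, the delta-6 desaturase, had a log2 fold change of -0.50 (limma with BH-adjusted p = 0.0917). Fads6 and Hacd3 were higher, by 1.41 and 0.63 on the log2 scale, and lost their calls in 3 and 5 of the 6 fits.

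In triacylglycerol synthesis, 2 of 17 genes were lower and 4 higher. Gpd1, which makes glycerol 3-phosphate, and Acsl5, an acyl-CoA synthetase, fell with log2 fold changes of -2.69 and -1.61. Gpd1 lost its call in 2 of the 6 fits with a muscle left out and Acsl5 in 0. Gpam, which adds the first acyl chain, had a log2 fold change of -0.99 (limma with BH-adjusted p = 0.0849). The phosphatidate phosphatases Lpin1 and Lpin2 rose with log2 fold changes of 2.14 and 1.70, and Lpin1 reached 76.3 ± 13.3 FPKM from 20.1 ± 6.35 (SD, n = 3). Of 6 genes of mitochondrial fatty acid synthesis, 1, Mcat, was higher and 0 lower in limma, with 1 at an unadjusted p under 0.05 downward. Mcat lost its call in 3 of the 6 fits with a muscle left out.

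Of 18 regulators beside Srebf1 and Thrsp, 4 were lower and 5 higher. Mlxipl, the carbohydrate-responsive factor ChREBP, fell by 0.69 on the log2 scale (limma with BH-adjusted p = 0.0382) and lost its call in 5 of the 6 fits with a muscle left out. Cebpa, a factor of fat cells, fell by 2.74 and lost its call in 5 fits, and Ppargc1b fell by 0.91 and lost it in 4. Akt2, the insulin-activated kinase, and Rxra, the partner of LXR, rose with log2 fold changes of 1.21 and 1.14, and lost their calls in 0 and 1 of the 6 fits. Srebf2, Nr1h3 (LXR alpha) and Insig1, which holds SREBP proteins in the endoplasmic reticulum, had log2 fold changes of -0.73, 0.30 and 0.87 with BH-adjusted p of limma of 0.128, 0.248 and 0.165. With each muscle left out they ranged from -0.995 to -0.36, from 0.12 to 0.42 and from 0.60 to 1.32. Insig1 was called only without C26 replicate 3 (limma with BH-adjusted p = 0.0409).

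**Figure D5:**
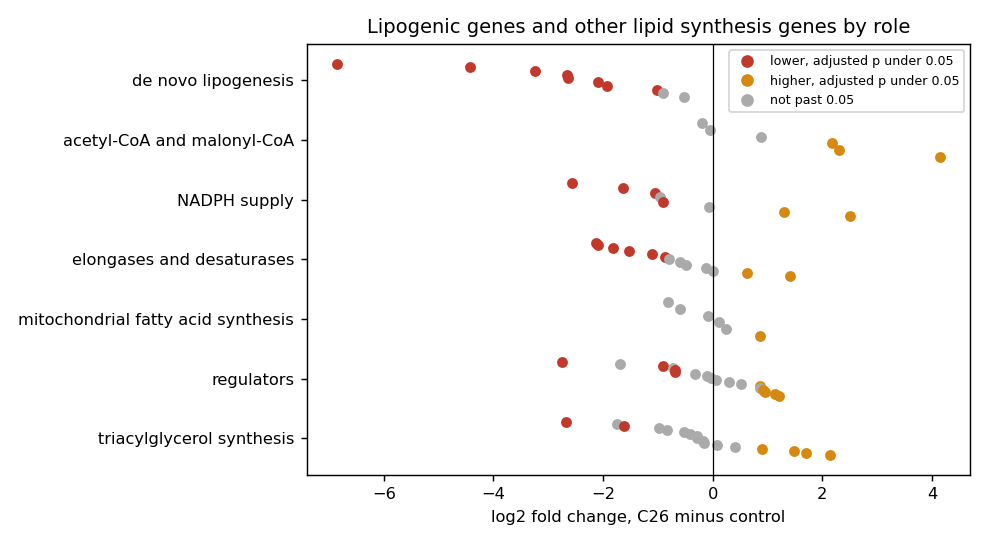
Log2 fold change (C26 minus control) of the 10 lipogenic genes and of 68 other lipid synthesis genes by role, 1 point per gene, coloured by the call of limma. The lipogenic genes lie between -6.86 and -0.53, and the other roles hold genes on both sides of 0.

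Among the 11215 genes with a mean TPM of at least 1 after division by the TMM factors, the log2 levels most like those of Fasn over the 6 muscles, outside the gene lists, were those of Dop1b, Xpr1, Tspan18, Slc36a2, Plxna1 and Adora1, with Pearson r of 0.998 to 0.993. Of these, Slc36a2 and Adora1 had the largest changes, with log2 fold changes of -2.71 and -2.19 (limma with BH-adjusted p of 0.00896 and 0.0112). Closest to Scd1 were Plscr4, Olfml1, Gpx8, Cdr2l, Ubtd2 and Fam161a, with r of 0.997 to 0.996. The 6 points share their libraries and fall into both groups, so these values describe a likeness of pattern.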

How the data were processed

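Gastrocnemius samples, 3 of C26 mice and 3 of control mice, were sequenced as single-end reads of 50 bases on the BGISEQ-500. The authors filtered the reads for quality, adaptors and rRNA, aligned the rest with bowtie2 and estimated expression by RSEM, and the deposited values are FPKM per Entrez gene ID, to 2 decimals. The methods of the study name GRCm38.p5, while the submitters' processing notes name mm9, HISAT2 2.0.4, Bowtie2 2.2.5 and RSEM 1.2.12. The extraction text of the labels also names THP-1 cells. All listed genes have an FPKM above 0 in all 6 samples. Read counts were not analysed here, and the depth of the libraries is therefore unknown.

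Symbols of RefSeq (GRCm38.p6) matched 13327 of 13363 IDs. FPKM summed to between 531061 and 688300 per sample. They were rescaled to TPM, divided by TMM factors of 0.903 to 1.08 (unweighted, 30% of log ratios and 5% of levels trimmed), and log2-transformed after adding 1. Groups, taken from the sample titles, were compared with limma 3.58.1 under R 4.3.3, with Benjamini-Hochberg adjustment of the p-values across the 13363 genes and a threshold of 0.05. Ratios within a muscle were compared by exact permutation (scipy 1.17.1). The fits were tested on simulated data. The genes and lists were chosen with earlier results of these data known. The genes named are the 10 lipogenic genes, up to 2 per role and direction of the other lipid synthesis genes with the largest changes past the threshold, 15 genes of these and the marker lists whatever their values, and the 6 genes most like Fasn and the 6 most like Scd1. Of the genes this rule names, 1 is not reported here. Genes named beside the rule, such as single markers of other cells, were chosen after their values were seen. Positions come from GENCODE M21 (GRCm38). The alternatives were another pseudocount, a filter on low values, other scalings, a prior variance with an intensity trend, an ordinary linear model, a block for the replicate number, and each muscle left out.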

Additional observations from a re-analysis of the deposited data

How the results depend on the processing

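Scd1, Scd2 and Slc25a1 kept their direction and their call under all alternatives tried. An ordinary linear model per gene, which does not share the spread between genes, gave 3 lipogenic genes lower, 3 lower by over 4-fold, 7 other lipid synthesis genes lower and 11 higher. Over the other alternatives with all muscles, 6 to 8 lipogenic genes were lower and 5 to 7 lower by over 4-fold, and 11 to 23 and 12 to 18 other lipid synthesis genes were lower and higher. With each muscle left out, the counts were 3 to 10 lipogenic genes lower, 3 to 7 lower by over 4-fold, 6 to 20 other genes lower and 9 to 17 higher. No lipogenic gene was higher in limma under any of these settings, and none of the 10 log2 fold changes changed sign. The 7 ratios were recomputed with a pseudocount of 0.1 and with each muscle left out, and those to fat cell markers also less Plin4, and kept their sign. With each muscle left out, Scd1/Scd2 ranged from -5.32 to -3.45, Fasn/Acaca from -3.86 to -3.36, Acaca/Acacb from -3.55 to -2.63, Slc25a1/Acly from -1.52 to -0.98, and Scd1, Fasn and Slc25a1 against the fat cell markers from -4.37 to -3.74, from -2.22 to -1.06 and from -1.12 to -0.23. TPM summed without the 20 most abundant genes, chosen after the data were seen, moved the median of all genes to -0.27, against -0.05. Over all genes, where 1931 were lower and 2590 higher, the ordinary linear model called 959 and 1526, and the fits with a muscle left out 669 to 2160 lower and 1131 to 3311 higher, with the fewest without C26 replicate 1.

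The labels do not say whether same-numbered samples belong together. The deviations of same-numbered samples had correlations of -0.04, -0.08 and -0.11, and those of differently numbered samples ran from -0.10 to 0.13. These values cannot settle a pairing by number, because the deviations cancel out within each group of 3. With the replicate block, 1236 of all genes were lower and 1844 higher, 7 lipogenic genes were lower, and Elovl6 lost its call with a BH-adjusted p of limma of 0.0544. Elovl6 also lost it with the deposited FPKM (log2 fold change -1.70, BH-adjusted p of limma 0.0557), quantile normalization (0.0796) and the ordinary linear model (0.129), and Acly with quantile normalization (0.0506) and the ordinary linear model (0.123). Values are rounded to 0.01 FPKM, so the fold change of Elovl6 is imprecise.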
